A study of Mus musculus with 12 samples.

Results

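Lipid-associated macrophage genes are genes switched on in macrophages that take up cell debris and lipid, and 10 of them were followed here: Trem2, Tyrobp, Gpnmb, Spp1, Lgals3, Cd9, Fabp5, Cd63, Ctsd and Apoe. They were chosen by symbol, with no measured value in the rule but with earlier results of these data known. All 10 were found among the 24421 rows of the count table. RNA of the tibialis anterior, a muscle at the front of the lower leg, was sequenced in male mice of 4 months, 6 of strain C57Bl/6 (WT) and 6 of strain mdx/mTR; the labels record no treatment. The mdx allele disrupts Dmd, the dystrophin gene, and mTR stands for the telomerase RNA gene Terc. No group carried only one of these alleles and the strain background of the mdx/mTR mice is not given in the sources used here, so the parts of dystrophin loss, telomerase loss and strain cannot be told apart. The design asked which mRNAs differ between the muscles of the 2 strains.

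Trem2 is a receptor on macrophages that senses lipids and lipoproteins, among them those that carry apolipoprotein E. It has no signalling tail of its own and passes its signal through the adaptor Tyrobp to the kinase Syk, and macrophages with this receptor clear dying cells and store or degrade the lipid they take up. Cells with high Trem2, Gpnmb, Spp1 and Lgals3 are known from obese fat, arterial plaques and injured tissue, and in damaged skeletal muscle macrophages clear dead fibres and remain while new fibres form.

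The WT libraries held 36903560 to 40981012 counts each, the mdx/mTR libraries 35136327 to 60330410. The label of the mutant group was checked on Dmd, which ran from 228 to 244 CPM (counts per library brought to 1 common size) in WT and only from 35.2 to 56.4 CPM in the mutant mice (edgeR quasi-likelihood test, log2 fold change -2.34 ± 0.09 SE, adjusted p 8.3e-10). For Terc the 12 libraries together gave 2 counts, so its loss could not be checked. Transcripts of mature muscle fibres dominated both groups, with 6 marker genes summing to 114229 to 127319 CPM in WT and 93848 to 123900 CPM in mdx/mTR. A floor of 3 counts, the most that is compatible with an observed 0 at 95% confidence, came to 0.0497 to 0.0854 CPM.

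The sequences shown are the 250 bases upstream of the transcription start of 4 of the genes, which were chosen because they span the range of the responses described further on: Trem2 and Gpnmb rose strongly, Spp1 varied most between mice, and Ctsd did not pass the test. Sequences are from RefSeq (GRCm38.p6), 5′ to 3′ on the gene's own strand. Capitals mark matches, on either strand, to 1 of 3 motifs: CACGTG, the E-box read by Mitf and Tfeb, GAGGAA, the core read by the macrophage factor Spi1, and TGANTCA, the site of AP-1. A capital TTCCTC is GAGGAA read on the other strand.
Trem2, chr17:48346151-48346400, plus strand: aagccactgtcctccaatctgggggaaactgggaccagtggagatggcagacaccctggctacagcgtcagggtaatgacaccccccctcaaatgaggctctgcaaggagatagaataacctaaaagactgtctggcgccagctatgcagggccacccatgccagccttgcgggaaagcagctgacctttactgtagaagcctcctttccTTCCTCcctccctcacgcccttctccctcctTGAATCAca
Gpnmb, chr6:49036268-49036517, plus strand: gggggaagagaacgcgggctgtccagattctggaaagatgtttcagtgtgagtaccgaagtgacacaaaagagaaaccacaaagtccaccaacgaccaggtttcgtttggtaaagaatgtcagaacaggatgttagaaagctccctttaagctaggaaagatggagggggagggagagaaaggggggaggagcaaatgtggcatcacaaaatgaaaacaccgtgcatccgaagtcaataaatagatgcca
Spp1, chr5:104434861-104435110, plus strand: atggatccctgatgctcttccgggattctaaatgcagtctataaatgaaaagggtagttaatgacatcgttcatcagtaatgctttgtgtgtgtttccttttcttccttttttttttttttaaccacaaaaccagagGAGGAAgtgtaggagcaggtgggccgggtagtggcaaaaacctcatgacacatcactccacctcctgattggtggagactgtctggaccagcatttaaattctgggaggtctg
Ctsd, chr7:142387828-142388077, minus strand: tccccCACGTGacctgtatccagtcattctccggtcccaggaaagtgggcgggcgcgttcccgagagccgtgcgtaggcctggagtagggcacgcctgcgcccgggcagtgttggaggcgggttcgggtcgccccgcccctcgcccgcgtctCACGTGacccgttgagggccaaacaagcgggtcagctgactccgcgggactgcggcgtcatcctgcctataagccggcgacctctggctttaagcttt
Promoters were matched for 8 of the 10 genes, with 11 start sites. Counted per start site, the E-box occurred in 1 of the 11, that of Ctsd, with 2 copies, and in 6.02% of all 32851 promoters of this length. The Spi1 core occurred in 5 of the 11, which belong to Apoe, Cd63, Spp1 and Trem2, and in 23.3% of all promoters. The AP-1 site occurred in 1 of the 11, that of Trem2, where it begins 9 bases before the start, and in 6.75% of all promoters. In the window shown for Gpnmb none of the 3 motifs was found. These matches describe letters only.

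Of the 10 genes, 9 were higher in mdx/mTR and 0 lower at an adjusted p below 0.05, where 25.0% of the 13937 genes tested were higher and 23.4% lower, 48.3% in all (edgeR). Their median log2 fold change was 2.02, against 0.01 over all genes tested. The rise was large for Trem2, Lgals3 and Gpnmb (log2 fold changes of 3.58 to 3.92, up to 15.2-fold), intermediate for Spp1, Tyrobp and Apoe (3.80-fold to 5.82-fold), and small for Fabp5, Cd9 and Cd63 (1.45-fold to 2.05-fold). Ctsd was the 1 gene that did not pass. In 6 of the 10, Trem2, Tyrobp, Gpnmb, Lgals3, Cd63 and Apoe, every mdx/mTR mouse lay above every WT mouse, a separation seen in 12.6% of all genes tested. In whole muscle, more macrophages and more RNA per macrophage cannot be told apart. The p-values measure the spread between the 12 mice sampled.

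**Figure D1:**
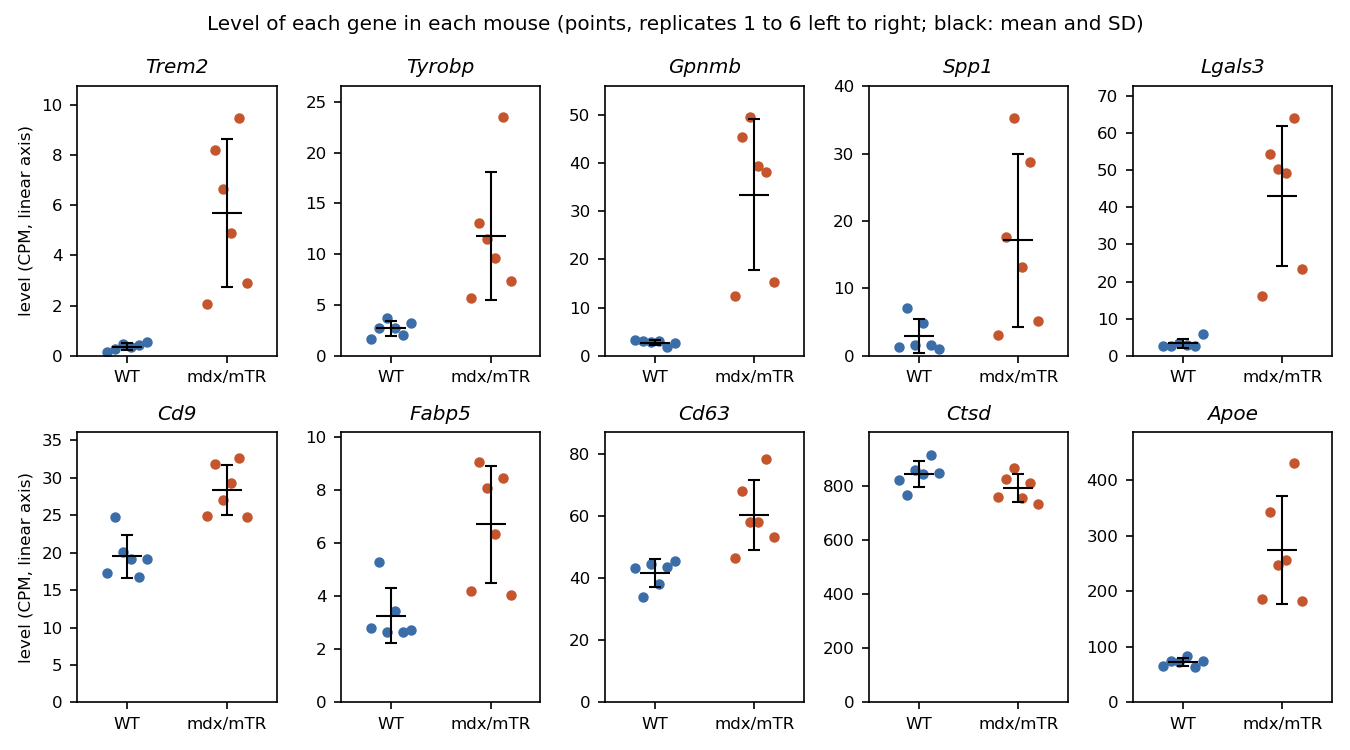
Level of each of the 10 genes in each mouse, in CPM on linear axes that start at 0, with the mean and SD of the 6 mice per group in black. Trem2, Gpnmb and Lgals3 show a WT group near the axis and a raised, spread mdx/mTR group, Spp1 and Fabp5 overlap between groups, and Ctsd covers about the same range in both.

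The receptor and its adaptor both rose. Trem2 (chr17:48346401-48354147, GRCm38) was barely expressed in WT muscle, at 0.167 CPM in the lowest mouse, a median of 0.381 and 0.547 in the highest. In mdx/mTR it ran from 2.06 CPM through a median of 5.76 to 9.48. The lowest mdx/mTR mouse therefore lay well above the highest WT mouse, and the log2 fold change was 3.92 ± 0.41 (SE, edgeR adjusted p 7.6e-06), rank 22 of the 13937 genes. WT levels were close to the limit of the low-count filter, a level of 0.250 CPM that Trem2 reached in 5 of 6 WT libraries and the other 9 genes in all 6. Tyrobp (chr7:30413760-30417585), which also serves other receptors of myeloid and natural killer cells, was higher than Trem2 in WT, from 1.69 through a median of 2.75 to 3.72 CPM. The mutant mice ran from 5.70 through 10.6 to 23.5 CPM. The groups did not overlap and the log2 fold change was 2.12 ± 0.31 (edgeR adjusted p 1.1e-04), smaller than that of Trem2.

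Gpnmb and Lgals3, 2 genes much used as markers of lipid-laden and phagocytic macrophages, rose almost alike. Gpnmb (chr6:49036546-49070929) encodes a transmembrane glycoprotein of lysosomes and the cell surface. It lay between 1.85 and 3.25 CPM in WT (median 2.91) and between 12.4 and 49.4 CPM in mdx/mTR (median 38.8), a mean of 2.78 ± 0.506 against 33.3 ± 15.6 (SD, n = 6 each). No mdx/mTR mouse came near the WT range, and the log2 fold change was 3.58 ± 0.34 (edgeR adjusted p 3.7e-06). Lgals3 (chr14:47367751-47386160) encodes galectin-3, a sugar-binding protein that is secreted and also gathers on damaged lysosomes. Its WT levels were 2.61 to 5.88 CPM (median 2.88), with WT replicate 6 the highest, and its mdx/mTR levels 16.2 to 64.1 CPM (median 49.7). The separation was again complete, with a log2 fold change of 3.66 ± 0.34 (edgeR adjusted p 3.2e-06). Within mdx/mTR both genes showed 4 high mice and a low pair, replicates 1 and 6.

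Apoe (chr7:19696109-19699188), the lipid-carrying apolipoprotein that macrophages secrete and that Trem2 can bind, was abundant in both groups and higher in every mdx/mTR mouse. WT mice had 63.7 to 83.8 CPM (median 73.1) and mdx/mTR mice 182 to 432 CPM (median 252). The lowest mdx/mTR mouse was above all WT mice, with a log2 fold change of 1.92 ± 0.19 (edgeR adjusted p 4.8e-06). Apoe is also made by cells other than macrophages.

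Spp1 (chr5:104435118-104441050), which encodes osteopontin, a secreted ligand of integrins and of Cd44, was the most variable of the 10. The WT mice had 1.36, 7.17, 1.61, 4.83, 1.59 and 1.04 CPM (replicates 1 to 6) and the mdx/mTR mice 3.03, 17.6, 35.3, 13.2, 28.7 and 5.14 CPM. WT replicates 2 and 4 stood above mdx/mTR replicate 1, and WT replicate 2 also above mdx/mTR replicate 6, so that the groups overlapped. The mean rose from 2.93 ± 2.50 to 17.2 ± 12.8 CPM (SD, n = 6 each), with a log2 fold change of 2.54 ± 0.62 (edgeR adjusted p 0.0040). Without WT replicates 2 and 4, a choice made after seeing the data, it was 3.60 (edgeR adjusted p 0.0015). In the authors' deposited table the log2 fold change of Spp1 was 1.38 (adjusted p 7.0e-04), the largest gap to the values here, beside 3.17 for Trem2, 2.93 for Gpnmb and 2.97 for Lgals3.

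The same pair of WT mice was also high in genes of bone and matrix-remodelling cells, which make Spp1 too. Ibsp, a bone matrix gene, was at 4.58 and 5.76 CPM in WT replicates 2 and 4 and at 0.445 to 1.11 CPM in the other 4. Mmp13, a collagenase, was at 11.2 and 16.8 CPM in them and at 1.25 to 1.56 CPM in the others. Postn, a matrix gene, was at 46.2 and 40.2 CPM in them and at 6.72 to 13.3 CPM in the others. Pth1r, a hormone receptor of bone-forming cells, was at 2.46 and 2.26 CPM in them and at 0.945 to 1.04 CPM in the others. Mmp13, Postn and Pth1r were chosen after their values were seen. In mdx/mTR, Ibsp and Spp1 matched in some mice and not in others. Ibsp was at 0.471, 1.81, 0.383, 1.12, 4.45 and 2.91 CPM in replicates 1 to 6: replicate 3, highest in Spp1, was lowest in Ibsp, while replicate 5, next in Spp1, was highest in Ibsp, and replicate 1 was low in both. Ibsp had a log2 fold change of -0.21 (edgeR adjusted p 0.82), Mmp13 of 0.04 (edgeR adjusted p 0.97) and Pth1r of 0.20 (edgeR adjusted p 0.57). Postn rose by 2.33 (edgeR adjusted p 0.0071), to 42.4 to 307 CPM in mdx/mTR, where replicate 5 was highest. Without WT replicates 2 and 4 the log2 fold changes were 1.48 for Ibsp (edgeR adjusted p 0.083), 2.04 for Mmp13 (adjusted p 0.020) and 0.74 for Pth1r (adjusted p 0.0075). Mmp13 and Pth1r, like Spp1, were then called higher. Leaving out the WT mice in which these genes stood highest lowers the WT mean, so that larger log2 fold changes were fixed by the choice. These calls are therefore no test of the genes. Of other bone genes, Bglap lay at 0 to 0.167 CPM and Sost at 0 to 0.0547 CPM over the 12 mice. Phex lay at 0.278 to 0.924 CPM. Alpl, a phosphatase of bone and other tissues, lay at 8.76 to 21.4 CPM. Its mean fell from 18.6 to 10.7 CPM (edgeR adjusted p 1.5e-05). Sp7 and Dmp1 were too low to be tested. Sp7 was highest in WT replicates 2 and 4, at 0.279 and 0.318 CPM, against 0 to 0.157 CPM in the other 4. Among mdx/mTR mice it spanned 0.139 to 0.724 CPM and peaked in replicate 5, as Ibsp did. The mean of Dmp1 went from 0.118 to 0.350 CPM, without a peak in that WT pair. Markers of myoblasts and new fibres, cells that can also express Spp1, rose in 5 of 6 cases, where 25.0% of all genes tested rose. Their summed level was 27.9 to 38.8 CPM in WT and 80.5 to 319 CPM in mdx/mTR. The part of these cells in the Spp1 levels was not tested.

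**Figure D2:**
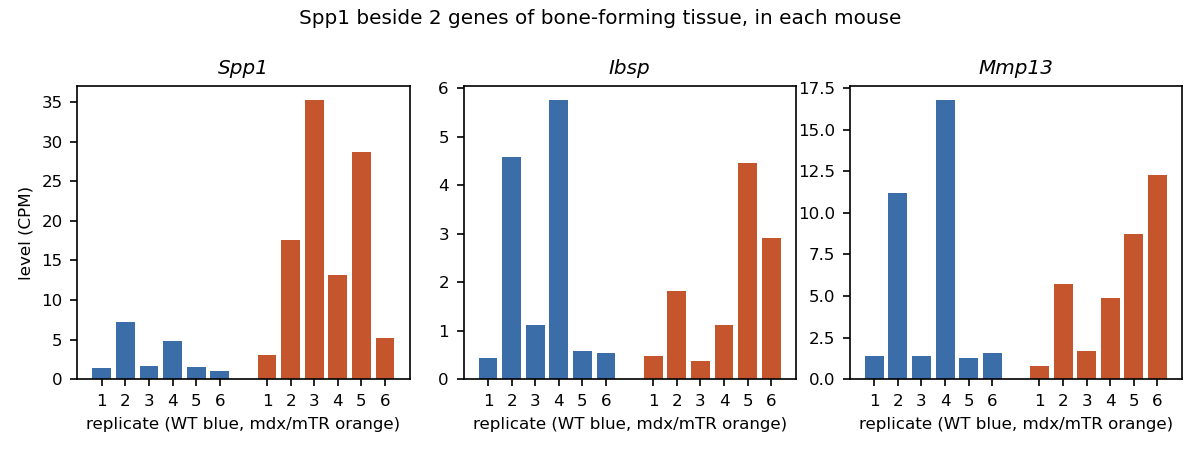
Spp1, Ibsp and Mmp13 in each mouse, in CPM (bars from 0; WT replicates 1 to 6 in blue, mdx/mTR replicates 1 to 6 in orange). In WT the bars of replicates 2 and 4 are the tallest in all 3 panels, while in mdx/mTR the tall Spp1 bar of replicate 3 has low Ibsp and Mmp13 bars and that of replicate 5 has tall ones.

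The remaining 4 genes, expressed in many cell types, moved little or did not pass. Fabp5 (chr3:10012548-10016607), a carrier of fatty acids inside cells, had 2.66 to 5.30 CPM in WT (median 2.76) and 4.04 to 9.07 CPM in mdx/mTR (median 7.22). The groups overlapped through WT replicate 2, and the log2 fold change was 1.03 ± 0.24 (edgeR adjusted p 0.0027). Cd9 (chr6:125460266-125494791), a tetraspanin of the plasma membrane, had 16.7 to 24.8 CPM in WT (median 19.2) and 24.8 to 32.6 CPM in mdx/mTR (median 28.1). WT replicate 2 and mdx/mTR replicate 6 met at the same level, and the log2 fold change was 0.54 ± 0.10 (edgeR adjusted p 6.1e-04). Cd63 (chr10:128900989-128912822), a tetraspanin of late endosomes and lysosomes, had 34.0 to 45.7 CPM in WT (median 43.5) and 46.6 to 78.4 CPM in mdx/mTR (median 58.2). Its groups met closely but did not overlap, with a log2 fold change of 0.54 ± 0.11 (edgeR adjusted p 0.0015). Ctsd (chr7:142375911-142388038), the lysosomal protease cathepsin D, was by far the most abundant of the 10, at 767 to 914 CPM in WT (median 845) and 734 to 865 CPM in mdx/mTR (median 785). The ranges lay largely on top of each other, with a log2 fold change of -0.09 ± 0.06 (edgeR adjusted p 0.22) that was 0.07 when libraries were scaled by their totals alone (edgeR adjusted p 0.39). In these 4 genes and Spp1, part of the transcript also occurs in other genes, as a share of 50-base stretches 36.6% for Ctsd, 36.5% for Cd63, 21.1% for Fabp5, 15.5% for Cd9 and 9.05% for Spp1, so that their levels are uncertain. No such stretch was found in Trem2, Tyrobp, Gpnmb, Lgals3 or Apoe.

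Levels of different genes were ordered per kilobase of the longest coding transcript. In WT the order was Ctsd (396 CPM per kb), Apoe (51.4), Cd63 (37.5), Cd9 (15.9), Tyrobp (4.52), Fabp5 (3.31), Lgals3 (2.39), Spp1 (1.95), Gpnmb (0.751) and Trem2 (0.341). The first 4 were each separated from the next by ranges that did not overlap, while from Tyrobp on each gene overlapped its neighbour. In mdx/mTR the order was Ctsd (372 CPM per kb), Apoe (195), Cd63 (54.5), Lgals3 (30.2), Cd9 (23.1), Tyrobp (19.7), Spp1 (11.4), Gpnmb (9.01), Fabp5 (6.79) and Trem2 (5.24), and beyond Ctsd and Apoe all neighbours overlapped. Lgals3 thus went from the seventh place to the fourth and Fabp5 from the sixth to the ninth. With merged exons as the length, Fabp5 stood eighth in WT already, and Lgals3 stood above Cd63 in mdx/mTR.

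The mice of the mdx/mTR group differed from each other in a shared way. Replicate 5 had the highest level of 6 of the 10 genes, replicate 3 of 3 and replicate 2 of 1. Replicate 1 had the lowest level of 6 and replicate 6 of the other 4. General macrophage genes followed a similar order: the geometric mean level of 6 reference genes (Adgre1, Csf1r, Fcgr1, Mertk, Cd14 and C1qa) was 8.35, 14.1, 12.1, 11.1, 23.0 and 9.12 CPM in mdx/mTR replicates 1 to 6, and 3.62 to 6.16 CPM in WT. Replicates 1 and 6 were thus lowest and replicate 5 highest in these genes as well. Gpnmb, Spp1 and Ctsd departed from this order, being highest in replicate 3, as did Fabp5, highest in replicate 2.

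**Figure D3:**
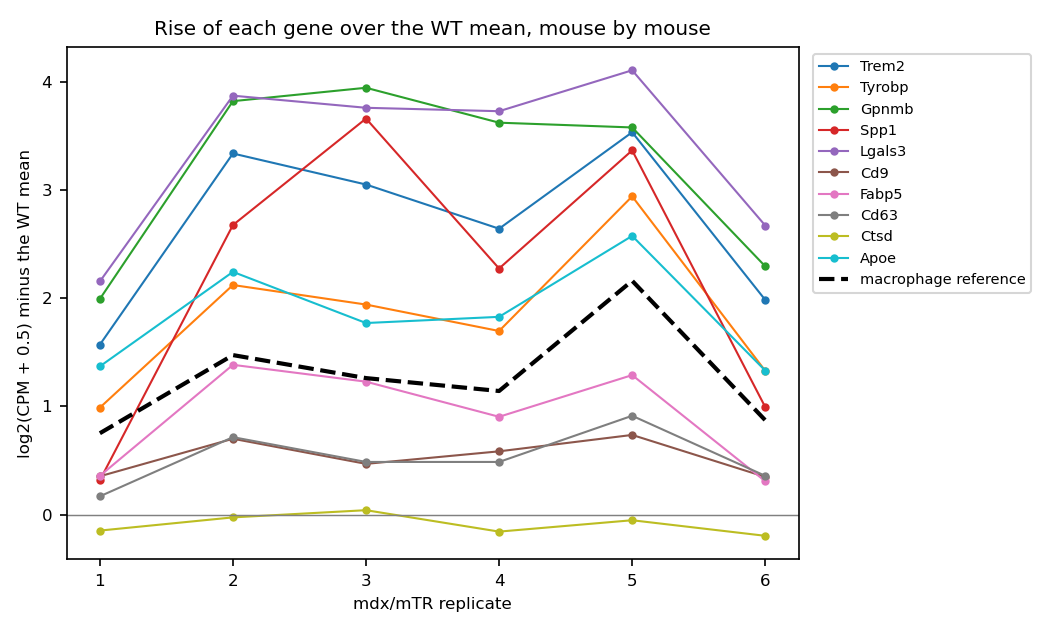
Level of each of the 10 genes in each mdx/mTR mouse as log2(CPM + 0.5) minus the WT mean, with the mean of the 6 macrophage reference genes as a dashed line; lines join the values of 1 gene, and the replicate numbers have no order. Replicates 1 and 6 lie low for nearly all genes, Lgals3, Gpnmb and Trem2 lie above the dashed line in every mouse, and Cd9, Cd63, Fabp5 and Ctsd lie below it.

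To ask which of the genes rose beyond general macrophage genes, each level was taken as log2(CPM + 0.5) minus the mean of the 6 reference genes in the same library. The reference itself rose by 1.28 on the log2 scale (2.42-fold), so most muscle genes fall on this scale: their median difference was -1.26, with 0.746% of genes higher and 93.8% lower (limma, adjusted p below 0.05). Against that background 6 of the 10 were higher and 3 lower. Genes outside the 10 were higher too. Among them were Cd68 (0.98, limma adjusted p 2.8e-05) and Lyz2 (0.74, adjusted p 0.0059). The new-fibre gene Myh3 was higher by 2.22 (adjusted p 1.9e-17). Other macrophage genes did not pass, such as Ptprc (0.29, adjusted p 0.22) and Mrc1 (-0.20, adjusted p 0.41). The reference genes themselves differed, from -0.96 for Mertk to 0.55 for Adgre1. The pseudocount of 0.5 makes the change of low genes such as Trem2 smaller than it is. In this fit the spread of each gene was drawn almost wholly from that of all genes (739 prior degrees of freedom), so that the p-value of a gene that varies more than most is too small. A two-sided exact permutation test over mice, added after seeing the data, was run for each of the 10 (unadjusted; smallest possible p 0.00216). By that test 5 were higher and 3 lower. All 6 mice of one group lay beyond all 6 of the other for 4 of the higher genes (Trem2, Gpnmb, Lgals3 and Apoe) and for 3 of the lower, where 0.438% of all genes were higher and 81.7% lower without overlap.

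Lgals3, Gpnmb and Trem2 stood above the macrophage reference by the widest margin. The difference, mdx/mTR minus WT on the log2 scale, was 2.10 ± 0.23 for Lgals3 (SE; limma adjusted p 1.6e-16, exact permutation p 0.00216). For Gpnmb it was 1.93 ± 0.23 (limma adjusted p 2.6e-14, exact permutation p 0.00216), and for Trem2 1.41 ± 0.23 (limma adjusted p 9.8e-09, exact permutation p 0.00216). With another reference of 4 macrophage genes (Cd68, Itgam, Ptprc and Aif1), which itself rose by 1.70, these 3 were the ones still called higher, at 1.68, 1.51 and 0.98. Tyrobp was higher by 0.56 ± 0.23 (limma adjusted p 0.015, exact permutation p 0.00433) and by 0.13 with the other reference (limma adjusted p 0.67). Apoe was higher by 0.58 ± 0.27 (limma adjusted p 0.036, exact permutation p 0.00216) and by 0.15 with the other reference (limma adjusted p 0.68). Its call was also lost with a pseudocount of 0.1 (0.46, limma adjusted p 0.12) and in 8 of the 12 fits without 1 mouse. Spp1 was higher by 0.94 ± 0.24 in limma (adjusted p 9.6e-05), which the exact permutation test did not pass (p 0.117), and the difference was 0.51 with the other reference (limma adjusted p 0.098).

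Cd9, Cd63 and Ctsd fell behind the macrophage reference. Cd9 was lower by this measure (-0.75 ± 0.24, exact permutation p 0.00216), as were Cd63 (-0.76 ± 0.26, exact permutation p 0.00216) and Ctsd (-1.37 ± 0.29, exact permutation p 0.00216). Fabp5 had a difference of -0.36 ± 0.23 (limma adjusted p 0.11, exact permutation p 0.117), and it was called lower with the other reference (-0.79, limma adjusted p 0.011). All 4 values lie above or near the median of all genes (-1.26).

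**Figure D4:**
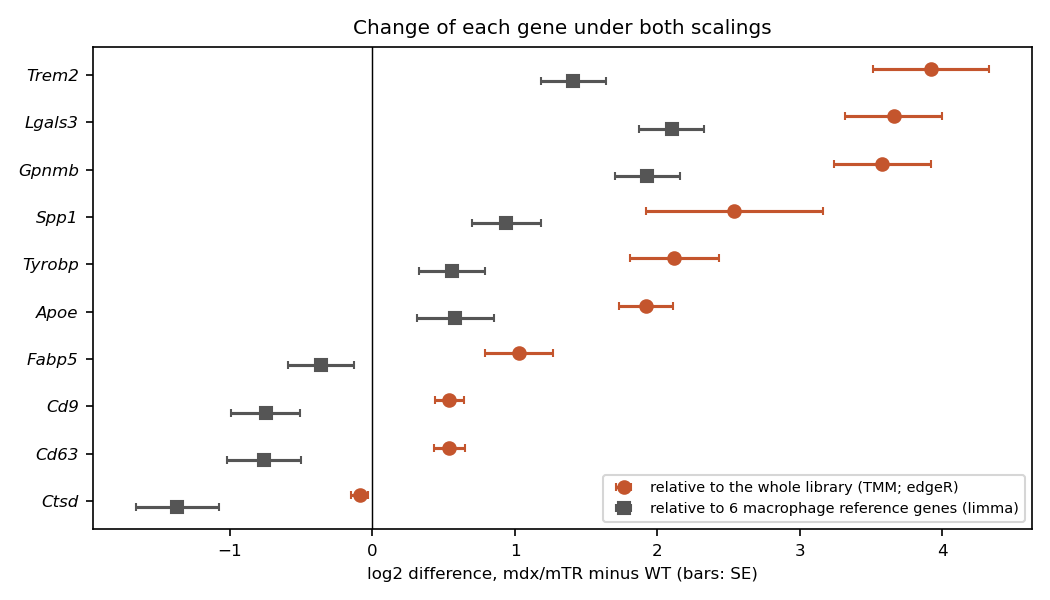
Log2 difference between mdx/mTR and WT for each of the 10 genes with its SE, relative to the whole library (circles, edgeR) and relative to 6 macrophage reference genes (squares, limma on log2(CPM + 0.5)). Trem2, Lgals3 and Gpnmb are highest under both scalings, and Fabp5, Cd9 and Cd63 change side.

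Genes of macrophages in general rose to a similar degree. Of 15 such genes 14 were higher and 0 lower, with a median log2 fold change of 1.87, near the 2.02 of the 10 genes, and their summed level went from 105 to 182 CPM in WT to 303 to 851 CPM in mdx/mTR. Cd68, a lysosomal glycoprotein of macrophages, rose by 2.55 ± 0.31 (edgeR adjusted p 2.4e-05) and Adgre1, which encodes F4/80, to 19.7 ± 8.81 CPM from 4.91 ± 1.20 (SD, n = 6 each; adjusted p 4.3e-05). Csf1r, the receptor for the growth factor of macrophages, rose by 1.32 ± 0.19 (adjusted p 1.0e-04) and the mannose receptor Mrc1 by 1.13 ± 0.20 (adjusted p 4.2e-04). Markers of tissue-resident macrophages stayed, as a list, near the values of all genes tested: of 5, 1 was higher and 1 lower, with a median of 0.01. Over all genes tested 25.0% were higher and 23.4% lower, also with a median of 0.01. Folr2, a folate receptor, rose (0.92 ± 0.16, edgeR adjusted p 4.2e-04). Timd4, a receptor for dying cells, was lower, at 0.392 to 1.15 CPM in WT and 0.0153 to 0.328 CPM in mdx/mTR (edgeR adjusted p 0.0017). Most of its mdx/mTR levels were under the filter level of 0.250 CPM, and that of replicate 2 also under the floor of 3 counts. It was thus tested only through its WT level, and no fold is given. Lyve1, a marker of macrophages around vessels, averaged 5.18 ± 1.15 CPM in the WT and 5.25 ± 1.62 CPM in the mutant group (edgeR adjusted p 0.97).

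Among 29 tested genes often named with lipid-associated macrophages beside the 10, 21 were higher and 4 lower, with a median log2 fold change of 0.71. Over all genes tested 25.0% were higher and 23.4% lower. Atp6v0d2, a subunit of the lysosomal proton pump in macrophages and osteoclasts, lay at 0.0278 to 0.137 CPM in WT and at 1.15 to 4.39 CPM in mdx/mTR (edgeR adjusted p 2.9e-06). All 6 WT levels were under the filter level, 3 of them also under the floor of 3 counts, so that it was tested only through its mdx/mTR level and no fold is given. Itgax, which encodes the integrin CD11c, rose by 2.47 ± 0.32 (adjusted p 4.7e-05). The glucan receptor Clec7a rose by 2.60 ± 0.43 (adjusted p 2.8e-04) and by 2.06 without mdx/mTR replicate 5. Axl, a receptor for dying cells, rose by 0.92 ± 0.11 (adjusted p 1.9e-05). The lipid-handling genes of the list went both ways, and those named here beyond Lpl, Cd36 and Fabp4 were chosen after their values were seen. Soat1, which turns cholesterol into its stored ester, rose by 1.47 ± 0.23 (edgeR adjusted p 1.7e-04), and the cholesterol exporters Abca1 and Abcg1 by 0.71 ± 0.08 (adjusted p 1.4e-05) and 1.11 ± 0.22 (adjusted p 0.0012). Lipa, the acid lipase of lysosomes, rose by 0.87 ± 0.17 (adjusted p 9.8e-04), and Npc2, a cholesterol carrier of lysosomes, by 0.67 ± 0.09 (adjusted p 4.6e-05). The 4 genes that fell were Lpl, Cd36, Fabp4 and Nceh1, a cholesterol ester hydrolase (-0.57 ± 0.12, adjusted p 0.0018). Lpl, the lipase that frees fatty acids from lipoproteins, fell from 772 ± 115 to 309 ± 51.5 CPM (SD, n = 6 each; edgeR adjusted p 2.8e-06), and Cd36, a fatty acid receptor, from 575 ± 64.0 to 328 ± 37.8 CPM (adjusted p 1.2e-05). Fabp4, the fatty acid carrier of fat and capillary cells, fell by 0.24 on the log2 scale (adjusted p 0.021), a call lost when libraries were scaled by totals (-0.08, adjusted p 0.43). Lpl, Cd36 and Fabp4 stood at over 100 CPM in every WT mouse, and muscle, capillary and fat cells express them too. Endothelial markers fell in 3 of 5 cases and rose in 0, with a median of -0.27 and sums of 429 to 579 CPM in WT and 346 to 466 CPM in mdx/mTR. Kdr had a log2 fold change of -0.46 (edgeR adjusted p 0.0095), Tie1 of -0.27 (adjusted p 0.0059) and Emcn of -0.60 (adjusted p 0.0021), and with library totals alone Kdr (-0.30, adjusted p 0.097) and Tie1 (-0.12, adjusted p 0.30) did not pass. The part of these cells in the falls was not tested.

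Genes listed with Trem2 and Tyrobp signalling rose nearly throughout: 9 of 10 tested were higher and 1 lower, with a median of 1.21. Of all genes tested, 25.0% were higher and 23.4% lower, with a median of 0.01. The list also holds the proteases Adam10 and Adam17, which cut Trem2, and the inhibitory phosphatases Inpp5d and Ptpn6. The count is therefore not one of activating partners alone. Syk, the kinase that binds Tyrobp, went from 5.36 ± 0.928 to 13.7 ± 3.83 CPM (SD, n = 6 each; log2 fold change 1.36 ± 0.17, edgeR adjusted p 3.8e-05). Lat2, an adaptor below Syk, rose by 1.76 ± 0.25 (adjusted p 7.6e-05). The exception was Pik3cd, a catalytic subunit of PI3 kinase, which fell from 30.1 ± 4.56 to 19.8 ± 2.67 CPM (adjusted p 4.9e-04). The smallest rises, of Adam10 and Adam17, were 1.14-fold each and near the threshold (edgeR adjusted p 0.050 and 0.046). Relative to the macrophage reference, Vav1 stood highest of these genes at 0.43 (limma adjusted p 0.068). By that measure Lat2 was at 0.06 (adjusted p 0.81), Syk at -0.02 (adjusted p 0.93) and Plcg2 at -0.62 (adjusted p 0.0071). Of 5 other receptors that use Tyrobp, 3 were higher and 0 lower, among them Cd300lb (2.22 ± 0.34, edgeR adjusted p 1.6e-04) and Pilrb2 (1.25 ± 0.34, adjusted p 0.0083). These receptors are expressed at low levels, and a stricter filter of 1 CPM in 6 libraries left 1 call.

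Receptors listed for the secreted products of the 10 genes were split, with 9 of 18 higher, 4 lower and a median of 0.23. Beside receptors for osteopontin, galectin-3 and apolipoprotein E, the 18 hold the sorting receptors M6pr, Igf2r and Sort1. M6pr was among the higher (0.19, edgeR adjusted p 0.031) and Sort1 among the lower (-0.48, edgeR adjusted p 0.0014), while Igf2r did not pass (0.01, edgeR adjusted p 0.91). Of all genes tested, 25.0% were higher and 23.4% lower. Cd44, a receptor for osteopontin and hyaluronan, rose from 8.14 ± 2.06 to 24.5 ± 12.2 CPM (SD, n = 6 each; edgeR adjusted p 3.2e-04), and Itga5, the fibronectin receptor subunit, rose by 0.89 ± 0.14 (adjusted p 1.5e-04). Itga4, an integrin subunit that also binds osteopontin, fell from 39.1 ± 1.89 to 9.98 ± 2.87 CPM (adjusted p 3.7e-07), and no mdx/mTR mouse (highest 15.3 CPM) reached the WT range (lowest 36.1 CPM).

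Transcription regulators of macrophages and lysosomes were split as well, with 6 of 15 higher, 4 lower and a median of 0.10. Over all genes tested 25.0% were higher and 23.4% lower, with a median of 0.01. Spi1, which encodes the macrophage factor PU.1, rose by 1.82 ± 0.31 (edgeR adjusted p 3.8e-04) and Runx1 by 2.63 ± 0.19 (adjusted p 3.8e-07). The regulators of lysosomal genes went both ways. Tfe3, chosen after its values were seen, rose by 0.23 ± 0.07 (edgeR adjusted p 0.016), a call lost without WT replicates 2 and 4 (0.22, adjusted p 0.051). Tfeb fell from 78.6 ± 4.26 to 61.4 ± 5.94 CPM (SD, n = 6 each; adjusted p 4.7e-04) and Flcn, an upstream inhibitor of Tfeb, by 0.40 on the log2 scale (adjusted p 0.0026). Mitf fell by 0.25 (adjusted p 0.0036), a call lost when libraries were scaled by totals (-0.10, adjusted p 0.19). Tfec, a relative of these found in macrophages, was too low to be tested, with a mean of 0.0404 ± 0.0215 CPM in the WT mice and 0.562 ± 0.473 CPM in the mutants. Relatives of the 10 genes gave 6 of 13 higher, 1 lower and a median of 0.24, beside the same shares over all genes tested. The tetraspanin Cd53 of white blood cells rose by 2.02 ± 0.31 (edgeR adjusted p 1.7e-04) and Cd82 by 0.99 ± 0.15 (adjusted p 1.8e-04), both more than Cd9 and Cd63 in size, a gap that was not tested. Fabp3, the muscle fatty acid carrier, fell from 140 ± 27.2 to 67.3 ± 21.9 CPM (adjusted p 3.1e-04).

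The genes with the most similar pattern over the 12 mice were found among 12207 genes at a mean of at least 1 CPM by the root mean square difference of log2(CPM + 0.5), each centred on its WT mean. A like size of rise in mdx/mTR therefore counts towards a small difference. For Trem2 these were the protease gene Ctss (0.21), Atp6v0d2 (0.24) and the pore-forming macrophage gene Mpeg1 (0.27). For Gpnmb they were Lgals3 (0.37), Ctss (0.51) and Trem2 (0.51). Spp1 had no close match, its nearest being Tlr13 (0.76), an endosomal receptor for RNA, Top2a (0.77), a gene of dividing cells, and Atp6v0d2 (0.78). Ctss itself rose from 6.54 ± 1.90 to 52.7 ± 25.0 CPM (SD, n = 6 each; edgeR adjusted p 6.7e-06).

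Several of the 10 genes are also expressed by cells other than macrophages, whose markers were read beside them. The counts below stand beside 25.0% higher and 23.4% lower over all genes tested. Osteoclasts use Atp6v0d2, Gpnmb and Spp1: of their 4 tested markers 2 were higher, with a summed level of 8.20 to 14.7 CPM in WT and 19.0 to 35.8 CPM in mdx/mTR, and the fusion genes Ocstamp and Dcstamp were too low to be tested. Melanocytes use Gpnmb: their 4 markers summed to 0.0522 to 0.140 CPM in WT and 0 to 0.0852 CPM in mdx/mTR, and Tyr had 0 counts in all 12 libraries. Fat cells use Fabp4, Lpl and Cd36: of 4 tested markers 0 passed in edgeR, with sums of 7.89 to 12.2 and 4.88 to 17.5 CPM. Neutrophil markers were higher in 2 of 3 tested, with mdx/mTR sums of 1.87 to 18.6 CPM. The WT sums began at 0.639 CPM and reached into that range. S100a8, 1 of these 2 higher markers, averaged 0.146 CPM in WT, under the filter level. Monocyte markers were higher in 2 of 2, with sums of 3.06 to 9.19 and 10.8 to 69.7 CPM. Both upper ends came from mdx/mTR replicate 5. There the neutrophil gene Csf3r was at 12.7 CPM (other mdx/mTR mice 1.26 to 2.87) and the monocyte gene Ccr2 at 56.0 CPM (others 9.78 to 16.8). Fibro-adipogenic progenitor markers were higher in 3 of 5, with sums of 169 to 266 and 292 to 443 CPM, and tendon cell markers in 4 of 4, with sums of 79.5 to 123 and 165 to 384 CPM. Schwann cells can make Apoe: their markers were lower in 4 of 4, with sums of 41.1 to 52.7 and 21.8 to 33.6 CPM. Dendritic cell markers were higher in 3 of 5, with sums of 8.26 to 10.7 and 8.78 to 12.3 CPM. T, B and natural killer cell markers were higher in 1 of 2 tested, with sums of 0.555 to 2.09 and 2.49 to 4.69 CPM. The natural killer genes Ncr1 and Klrb1c were too low to be tested, with means of 0.0357 and 0.0544 CPM in WT and 0.292 and 0.362 CPM in mdx/mTR. The part of all these cells in the levels of the 10 genes was not tested.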

How the data were processed

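RNA of 12 tibialis anterior muscles (6 WT, 6 mdx/mTR; groups from the labels) was read from the authors' deposited raw counts, whole numbers for each gene symbol, where 0 per-sample columns were left unmatched. FastQC, STAR and DESeq2 and the build mm10 are named, without versions, in the submitters' processing notes; the counting tool, annotation and strand setting are not given in the sources used here. Per the file headers, the authors' own comparison lists p-values, a test score, a log2 fold change with SE, and a signal averaged over all libraries after scaling.

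Counts were tested with edgeR 4.0.16 in R 4.3.3 (filterByExpr, 13937 genes; trimmed mean of M-values scaling, TMM; quasi-likelihood model with group only; Benjamini-Hochberg over all tested genes, threshold 0.05). The SE is the log2 fold change over the square root of F. CPM uses TMM-scaled totals. Macrophage-scaled values were fitted with limma 3.58.1. Exact permutation tests were two-sided (scipy 1.17.1). On simulated counts for 13820 genes of this comparison, 198 of them changed, edgeR recovered 91.4% with 4 false calls and the macrophage-scaled fit 88.4% with 14. The macrophage reference genes were held unchanged in the simulation. In the data the reference rose by 1.28 on the log2 scale and 48.3% of genes were called, so these figures do not measure the false calls of the fits reported here. Replicates differed beyond sampling noise (chi-square per degree of freedom 8.87 to 116). Limits from counts cover counting error only. The 10 genes and all lists were chosen with earlier results of these data known. Genes named were those of the 10, a fixed set per list and the 2 smallest p-values of each list, and any others were chosen after their values were seen. Loci and lengths are from GENCODE M21 (GRCm38), promoters from RefSeq. Alternatives were other filters, scalings, thresholds and references, DESeq2 1.42.0, limma-voom, a replicate block and leaving out mice.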

Additional observations from a re-analysis of the deposited data

Results flagged for a closer look

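In each group of 6 mice, the gap of the highest or lowest value to its neighbour was divided by the whole range, and a ratio above 0.625 set a value apart. This was so in 11 of 134 groups of values, where chance at about 1 in 20 gives 6.70; genes that move together are not independent. Among the 10 genes, Lgals3 in WT replicate 6 stood at 5.88 CPM (others 2.61 to 3.41) and Fabp5 in WT replicate 2 at 5.30 CPM (others 2.66 to 3.45). On the macrophage-scaled log2 scale, Cd63 in mdx/mTR replicate 5 was lowest at 1.75 (others 2.22 to 2.48).

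Of the 11, 6 fell on mdx/mTR replicate 5, the mouse with the highest macrophage reference level. It was highest for Cd300lb (7.82 CPM, others 1.96 to 3.96), Spi1 (11.5 CPM, others 2.91 to 5.50), Cd53 (21.4 CPM, others 5.44 to 9.10), Clec7a (20.8 CPM, with the next mouse far below) and Cd44 (48.3 CPM, others 15.3 to 25.5). Without this mouse the log2 fold changes were 1.84 for Cd300lb, 1.46 for Spi1, 1.65 for Cd53, 2.06 for Clec7a and 1.27 for Cd44, all still called higher by edgeR. Fabp3 was highest in mdx/mTR replicate 3, at 111 CPM (others 53.3 to 67.4). The endothelial genes Kdr and Tie1 were highest in mdx/mTR replicate 2 (102 CPM, others 54.6 to 70.2) and WT replicate 2 (94.6 CPM, others 72.1 to 80.5).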

How the results depend on the processing

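Every alternative run for the counts gave 9 of the 10 genes higher and 0 lower. The gene calls changed as follows. Ctsd turned to 0.07 with library totals alone, where the median of all genes moved from 0.01 to 0.17 and 78.2% of calls were higher in place of 51.6%. Fabp4 did not pass with upper quartile scaling (-0.20), library totals alone (-0.08) or without WT replicates 2 and 4 (-0.16), nor Mitf (-0.10), Kdr (-0.30) and Tie1 (-0.12) with library totals alone, nor Tfe3 (0.22) without WT replicates 2 and 4. Differences near 0 changed sign: Lyve1 with limma-voom (-0.04) and with the replicate block (-0.01), Ibsp with limma-voom (0.10) and without WT replicates 2 and 4 (1.48), a setting under which Mmp13 (2.04) and Pth1r (0.74) passed. That setting leaves out the WT mice highest in Ibsp, Mmp13 and Pth1r, so it raises their values by choice. Without 1 mouse Lyve1 ran from -0.15 to 0.10, Ibsp from -0.66 to 0.37 and Mmp13 from -0.35 to 0.78. A stricter filter left 1 call among other Tyrobp-coupled receptors, since fewer were tested. With the second macrophage reference 3 of the 10 genes were higher in place of 6. That reference rose by 1.70 on the log2 scale against 1.28 for the first, so that every scaled difference is lower by the gap between them. Fits without 1 mouse gave 6125 to 6816 changed genes, 9 to 9 of the 10 higher, and macrophage-scaled 5 to 6 higher and 3 to 4 lower. Over all alternatives the Spp1 adjusted p ran from 5.1e-04 to 0.039.

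The groups share replicate numbers, but the deviations of mice with a common number showed correlations of -0.155 to 0.354, above 0.1 in only 2 of 6 pairs, and no pairing was assumed. A fit with the replicate block called 6420 genes, against 6736 without it. Its log2 fold changes were 3.84 for Trem2, 3.44 for Gpnmb, 2.43 for Spp1, 3.57 for Lgals3 and 1.86 for Apoe, and under it the macrophage-scaled difference of Apoe no longer passed (0.58, limma adjusted p 0.060). In WT, Trem2 and Atp6v0d2 were near the depth limit, as was Timd4 in mdx/mTR.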
